A study of Mus musculus with 44 samples.

Results

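Of the 88981 accessible regions in the ATAC-seq table, 7284 lay away from gene starts and had a lower signal in both GTS sources, GTS1 and GTS2, than in GTML3 given DMSO. They were chosen by measured values. The smaller of a region's named distances to a gene start had to exceed 1000 bases, its mean over the 12 libraries had to reach 5 CPM (a region's reads scaled to the library's total over the listed regions), and the mean of GTS1 and the mean of GTS2 each had to be at most 0.5 times the mean of GTML3 under DMSO. Of 75536 regions over 1000 bases from a start, 24394 reached the CPM minimum, and 29.9% of these met the whole rule. GTS1 alone was at most 0.5 times GTML3 in 9047 of the 24394 (37.1%) and GTS2 alone in 12569 (51.5%). The regions are called the lower distal regions here, because the name "closed" goes further than the values. In 5705 of them (78.3%) the signal was under 5 CPM in both GTS sources, 103 (1.41%) kept at least 10 CPM in both, and 5 (0.0686%) had no read in any of the 4 GTS libraries.

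The series studied recurrence of mouse medulloblastoma, a tumor of the cerebellum and hindbrain. ATAC-seq was done in duplicate on GTML3 (GTML medulloblastoma tumor) and preGTS1 (preGTS1 medulloblastoma tumor), each given DMSO or DOX, and on GTS1 and GTS2 (GTS medulloblastoma tumor, treatment given as "-"). A second ATAC-seq table held duplicates labelled GFP and NoneGFP from GTML medulloblastoma tumor, also with treatment "-". Bulk RNA was measured in tissue labelled tumor, 8 samples of GTML and 6 of GTS (treatment "-"), and in GTML3 and preGTS1 under DMSO and DOX, with 3 samples in each of these 4 groups. The labels give no alleles, ages, doses or times. As background, GTML mice carry a MYCN transgene under a tetracycline-controlled element driven from the Glt1 (Slc1a2) promoter, and doxycycline switches that transgene off. Each line and each GTS source is 1 tumor source in duplicate libraries, so source, vehicle and model cannot be told apart in the comparison that chose the regions. The bulk tumors also hold host cells, and in them fewer cells of a type and less RNA per cell cannot be told apart.

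Distal accessible regions include enhancers, stretches of DNA where transcription factors bind and act on genes at a distance. Their accessibility differs strongly between cell types and between states of 1 cell type, much more than that of promoters. In medulloblastoma of the MYC-driven kind the homeobox factor OTX2 and photoreceptor genes are characteristically active, and neuronal differentiation genes are held down while MYC or MYCN is high.

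Several of the genes with many lower distal regions around them can be shown by sequence. Mir218-2, which lies within the axon guidance gene Slit3, was the nearest start of 17 of the 7284 regions. Its mature microRNAs are printed because this gene had the second most regions of all, with the seed (bases 2 to 8) in capitals, from RefSeq on GRCm38.p6.
mmu-miR-218-5p (chr11:35616840-35616860, plus strand): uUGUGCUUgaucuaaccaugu
mmu-miR-218-2-3p (chr11:35616882-35616903, plus strand): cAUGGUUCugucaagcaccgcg
The 2 arms do not share a seed. The 250 bases before the start are printed for 3 protein genes with lower distal regions whose own promoter region was also measured: Efna5, a ligand of Eph receptors, Impg2, a proteoglycan of the photoreceptor matrix, and Neurod1, a proneural factor of granule neurons. Capitals mark CAGATG on either strand, the E-box form bound by proneural factors.
Efna5 (chr17:62881318-62881567, minus strand): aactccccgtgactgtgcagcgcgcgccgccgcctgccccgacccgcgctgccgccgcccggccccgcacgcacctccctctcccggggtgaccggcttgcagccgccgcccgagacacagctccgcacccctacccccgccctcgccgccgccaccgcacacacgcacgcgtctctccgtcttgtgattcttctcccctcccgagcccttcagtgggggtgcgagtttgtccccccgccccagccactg
Impg2 (chr16:56204063-56204312, plus strand): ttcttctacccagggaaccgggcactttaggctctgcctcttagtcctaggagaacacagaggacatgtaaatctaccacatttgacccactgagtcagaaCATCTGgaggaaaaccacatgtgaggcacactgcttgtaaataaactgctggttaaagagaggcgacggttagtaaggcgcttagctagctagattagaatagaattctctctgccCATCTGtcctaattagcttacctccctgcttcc
Neurod1 (chr2:79456637-79456886, minus strand): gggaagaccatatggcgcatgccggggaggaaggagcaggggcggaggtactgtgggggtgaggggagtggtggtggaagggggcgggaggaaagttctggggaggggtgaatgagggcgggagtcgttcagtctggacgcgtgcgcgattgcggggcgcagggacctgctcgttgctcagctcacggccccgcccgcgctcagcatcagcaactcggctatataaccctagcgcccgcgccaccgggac
A search on both strands for CACGTG (the E-box of MYC and MAX), CAGATG and TAATCC (the site of OTX2 and CRX) found 2 CAGATG matches before Impg2, and these letters did not occur in the other 2 windows. Of 32851 RefSeq promoters of the same 250 bases, 6.02% held CACGTG, 14.4% CAGATG and 6.25% TAATCC. Of the 3921 promoters matched to 3089 of the 4155 genes nearest to lower distal regions, the shares were 7.37%, 12.3% and 5.87%. The Impg2 promoter region read 16.02 and 26.3 CPM in GTML3 under DMSO, 51.5 and 52.9 in preGTS1 under DMSO, 3.25 and 0.959 in GTS1 and 0 and 3.62 in GTS2. That of Neurod1 read 89.2 and 95.2 CPM in GTML3 under DMSO, 105 and 114 in preGTS1 under DMSO, 42.03 and 47.00 in GTS1 and 7.59 and 12.1 in GTS2, and that of Efna5 read 20.02 and 37.1 CPM in GTML3 under DMSO, 14.3 and 16.7 in preGTS1 under DMSO, 10.01 and 10.6 in GTS1 and 0.844 and 0.603 in GTS2. All 3 promoters were thus lower in GTS2 than in the DMSO libraries of GTML3 and preGTS1. The sequences of the distal regions themselves are not printed, since their coordinates fit mm9 and no genome of that build was used here.

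The lower distal regions were about equally accessible in GTML3 and preGTS1 and weak in both GTS sources. Their median signal was 14.3 and 13.8 CPM in the GTML3 DMSO duplicates, 12.4 and 13.3 in GTML3 DOX, 15.2 and 15.1 in preGTS1 DMSO and 12.2 and 12.1 in preGTS1 DOX. In GTS1 it was 2.50 and 2.4 CPM and in GTS2 1.69 and 1.21. The 17110 other distal regions at the same CPM minimum had medians over duplicates of 4.72 CPM in GTML3 DMSO, 9.54 in preGTS1 DMSO, 8.99 in GTS1 and 5.18 in GTS2. The lower distal regions held 15.9% to 16.0% of all listed reads in GTML3 DMSO and 16.3% in preGTS1 DMSO, against 13.5% and 12.6% under DOX, 2.91% to 2.94% in GTS1 and 1.74% to 1.77% in GTS2. Contrasts with the GTML3 DMSO libraries restate the rule and carry no test.

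**Figure D1:**
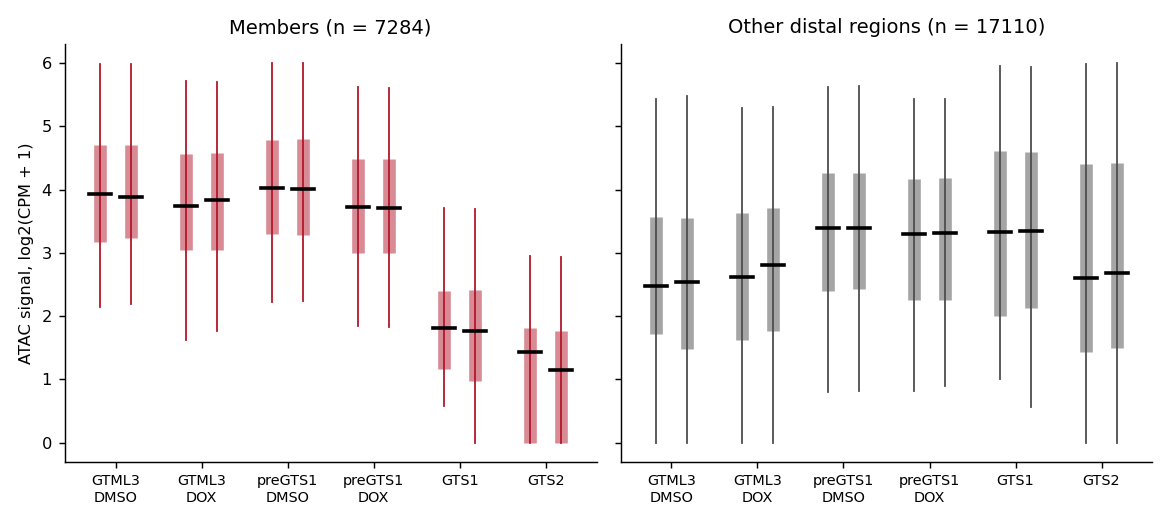
ATAC signal as log2(CPM + 1) in each duplicate (2 bars per condition) for the 7284 lower distal regions (members, left) and the 17110 other distal regions (right). Black ticks are medians, thick bars the middle quartiles and thin lines the 5th to 95th percentile, and the left panel drops only for GTS1 and GTS2.

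The fold part of the choice was read again in the second duplicates. Applying it to the duplicates numbered 1, with the CPM minimum still over all 12 libraries, gave 7225 regions. In the duplicates numbered 2 the signal was at most 0.5 times GTML3 DMSO in 83.7% of the 7225 for GTS1 and 89.9% for GTS2. Over all distal regions with the CPM minimum these shares were 38.4% and 50.8%. Of the 7225 regions, 5699 (78.9%) met the whole rule in the second duplicates as well. The ATAC duplicates of a condition differed by more than counting noise (chi-square per degree of freedom 1.88 to 1.95, where counting noise alone gives about 1). This repeat shows the spread between libraries, and whether it includes biological replication is not given by the labels. At the edge of the rule, the region 145 kb from Dpp6 had its larger GTS mean at 49.98% of GTML3 DMSO and the region 457 kb from 4930556G01Rik at 49.94%. Just outside lay the regions 139 kb from Gm12374 and 7.31 kb from Tbxas1, both at 50.01%.

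In preGTS1 most of the regions read nearer to GTML3 than to the GTS sources. Under DMSO, 4578 of the 7284 (62.9%) lay between 0.5 and 2 times GTML3 DMSO, 1498 (20.6%) at 2 times or more, and 1208 (16.6%) at 0.5 times or less. The median log2 ratio was 0.09, against 0.44 over the other distal regions. Both preGTS1 DMSO libraries were above all 4 GTS libraries in 6756 regions (92.8%), against 30.4% of the other distal regions. Because GTML3 DMSO was chosen high and the GTS sources low, these shares describe the regions and are not tested. The fit called 807 (11.1%) higher and 760 (10.4%) lower in preGTS1 DMSO than in GTML3 DMSO, where 12.3% and 5.47% of all regions were called, and nothing is read from this since the rule used GTML3 DMSO. In preGTS1 under DOX, 2329 (32.0%) were at 0.5 times GTML3 DMSO or less, and in GTML3 under DOX 1263 (17.3%). In single duplicates of GTML3 DOX the share was 21.4% and 22.0%. Promoter regions read lower in the preGTS1 libraries, with a median log2 CPM of 4.49 to 4.50, than in GTML3 (4.69 to 4.72), GTS1 (4.74 to 4.75) and GTS2 (4.85). After each library was centred on its promoters the shares at 0.5 times or less became 12.9% in preGTS1 DMSO, 26.7% in preGTS1 DOX and 17.2% in GTML3 DOX. The centring multiplied the GTML3 DMSO libraries by 0.971 and 0.972 and the GTS libraries by 0.881 to 0.949. All 7284 regions met the rule still, which these factors fixed in advance.

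The 1208 regions already low in preGTS1 had a median of 20.8 CPM in GTML3 DMSO and 6.41 in preGTS1 DMSO. Of these, 985 were also at 0.5 times or less in preGTS1 DOX, 13.5% of all the lower distal regions. Chromosome X held 6.79% of them, against 2.98% of all 7284. Of all listed reads, X held 3.62% to 3.68% in GTML3 DMSO and 2.28% to 2.29% in preGTS1 DMSO. It held 1.88% to 1.91% in GTS1 and 2.38% to 2.39% in GTS2. Chromosome Y held 0.0117% to 0.0127% in GTML3 DMSO and at most 0.000193% in any preGTS1 DMSO or GTS library. The part of these source differences in the values of X regions was not tested. The most extreme of the 1208 were 2 regions on X near G530011O06Rik. The first, chrX:166428907-166429698 (as deposited, in coordinates that fit mm9, like all region coordinates here), read 149 and 153 CPM in GTML3 DMSO, 1.48 and 0.772 in preGTS1 DMSO, 46.8 and 52.3 in GTS1 and 77.6 and 65.2 in GTS2. Here preGTS1 was below both GTS sources. The region 34.3 kb from Pde8b, a cyclic nucleotide phosphodiesterase, read 77.8 and 93.97 in GTML3 DMSO and 1.18 and 1.29 in preGTS1 DMSO, and that 201 kb from Ghitm, a mitochondrial membrane protein, 80.1 and 99.96 and 1.77 and 2.44. Near Ghitm GTS1 read 2.002 and 0.959 CPM and GTS2 had no read, so preGTS1 was near the GTS sources there. Near the olfactory receptor gene Olfr761 the DMSO duplicates read 54.3 and 47.3 in GTML3 and 1.33 and 0.901 in preGTS1.

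At the other end, 5 regions had the highest ratios of preGTS1 to GTML3 under DMSO. The region 312 kb from Gabrg3, a GABA receptor subunit, read 46.4 and 47.2 CPM in preGTS1 DMSO and 41.6 and 38.6 in preGTS1 DOX, against 2.29 and 2.39 in GTML3 DMSO and 1.75 and 0 in GTS1. The region 42.97 kb from Gm28590 read 147 and 141 in preGTS1 DMSO and 9.15 and 10.2 in GTML3 DMSO. That 855 kb from Ttll7, a tubulin polyglutamylase, read 146 and 153 in preGTS1 DMSO, 8.01 and 14.4 in GTML3 DMSO and at most 4.83 in any GTS library. These regions were accessible mainly in preGTS1, and their GTML3 DMSO means, against which the rule compares, were 2.34 CPM near Gabrg3, 9.66 near Gm28590 and 11.2 near Ttll7. The other 2 lay near 1700061F12Rik and Nox3, at 2.04 and 2.34 CPM in GTML3 DMSO and 36.7 and 35.9 in preGTS1 DMSO. Outside preGTS1 no condition had a mean over 2.34 CPM near Gabrg3 or over 2.04 near 1700061F12Rik. Both thus entered the set through preGTS1, and their high signal there is a description. Near Gabrg3 the fold of the rule rested on 4 and 4 reads in GTML3 DMSO and 7 and 0 in GTS1.

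More of the regions fell than rose with DOX in preGTS1. In limma on log2(CPM + 1) with Benjamini-Hochberg adjustment over all 88981 regions, 464 of the 7284 fell (6.37%) and 113 rose (1.55%), while 1.7% of all regions were called lower and 2.04% higher, and of the other distal regions with the same CPM minimum 3.41% were lower and 2.203% higher. The median log2 difference was -0.36, against -0.09 in the other distal regions and 0.03 in all regions. The CPM minimum used the preGTS1 libraries too, and 37 of the 113 rises and 31 of the 464 falls did not reach 5 CPM over the 8 libraries outside preGTS1. With the minimum taken over those 8, an alternative chosen after seeing the data, 433 of 5921 regions fell (7.31%) and 76 rose (1.28%), against 3.35% and 1.17% of other distal regions. The count depended on having all 4 libraries: without DMSO replicate 1 or 2 it was 34 or 36, and without DOX replicate 1 or 2 it was 42 or 50. Count models on the recovered reads called more, 2125 lower and 588 higher in DESeq2 and 2890 lower and 769 higher in edgeR's quasi-likelihood test.

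Among the falls, the region 24.6 kb from Hhat, the acyltransferase that palmitoylates Hedgehog proteins, fell from 288 and 290.5 CPM under DMSO to 37.1 and 38.3 under DOX (log2 difference -2.91, SE 0.13, limma adjusted p = 6.55e-10), a level between GTS1 (26.3 and 25.4) and GTS2 (155 and 134). That 14.8 kb from Mreg, which acts in pigment granule transport, fell from 401 and 373 to 58.4 and 53.4, below all 4 GTS libraries. Regions near 6530403H02Rik, Nnt and Usp7 fell by 3.07, 3.03 and 2.72 on the log2 scale. The duplicates of DMSO and DOX did not overlap in any of these 5. The region near 6530403H02Rik had a mean of 28.8 CPM in preGTS1 DMSO and at most 4.11 in any other condition. It thus entered the set through the condition in which it was high, and its fall is a description.

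The largest rise was 45.9 kb from Asb9, a SOCS-box protein, at chrX:160981306-160982129, from 1.33 and 0.515 CPM to 17.5 and 16.1 (log2 difference 3.24, SE 0.44, limma adjusted p = 0.000905). GTML3 went from 6.86 and 8.38 to 54.7 and 74.9 at this region. The region 14.4 kb from Rngtt, the mRNA capping enzyme, rose from 1.48 and 3.09 to 27.2 and 26.8 (log2 difference 3.14, SE 0.57, limma adjusted p = 0.00713) and read 2.06 and 6.04 in GTML3 DOX. The other large rises lay near Amotl1, a junction protein (3.00), Lyg1, a lysozyme relative (2.98), Nbas (2.97) and Pabpc2 (2.89). The 6 regions read at most 4.22 CPM in any GTS library. All but Asb9 had a mean under 5 CPM without the preGTS1 DOX libraries (2.38 to 4.74), so these 5 entered the set through the condition in which they were high, and their rises are a description.

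GTML3 read mostly in the same direction under DOX. Its DOX libraries had entered the choice through the mean CPM. Of the 464 regions that fell in preGTS1, 451 (97.2%) read lower under DOX than under DMSO in GTML3 and 230 (49.6%) were at 0.5 times or less, against 58.4% and 17.3% of all the lower distal regions. Their medians were 32.8 CPM in GTML3 DMSO and 15.9 in DOX, 34.8 in preGTS1 DMSO and 9.82 in DOX, 4.76 in GTS1 and 2.05 in GTS2. Even after DOX these regions therefore read above the GTS level in both lines at the median. Of the 113 that rose, 107 (94.7%) read higher in GTML3 and 69 (61.1%) at least 2 times higher. Of all the lower distal regions 41.6% read higher and 10.7% at least 2 times higher. The 113 had medians from 6.46 to 16.5 CPM in GTML3 and from 4.98 to 25.03 in preGTS1, against 1.61 in GTS1 and 1.15 in GTS2. Of the 113, 37 were under 5 CPM over the 8 libraries outside preGTS1. By the same fit over all regions, 327 of the 7284 were lower (4.49%, against 2.02% of all regions and 3.07% of the other distal regions) and 106 higher (1.46%, against 1.89% and 3.50%) with DOX in GTML3. These contrasts use the GTML3 DMSO libraries of the rule, so they are a description and nothing is read from them.

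**Figure D2:**
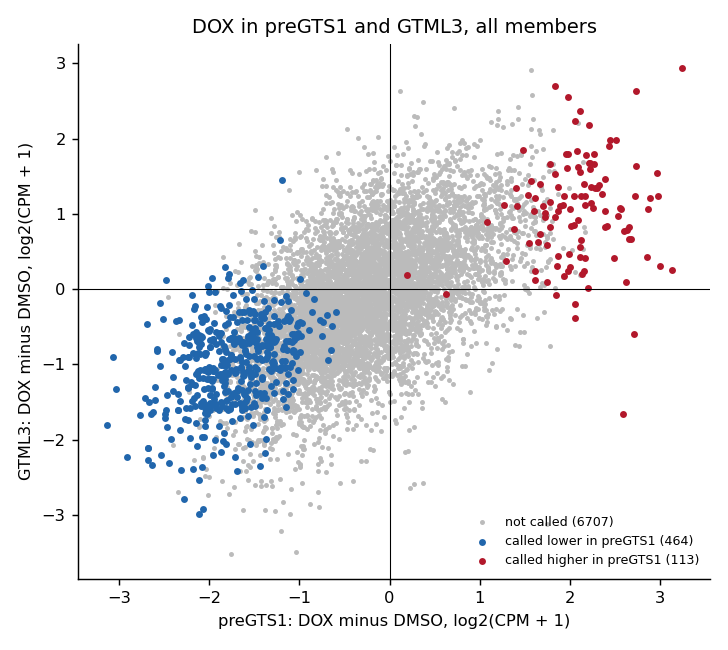
Difference between DOX and DMSO in log2(CPM + 1) for each of the 7284 lower distal regions, preGTS1 on the x axis and GTML3 on the y axis. Blue points are the 464 that fell and red points the 113 that rose in preGTS1, of which 451 and 107 lie on the same side of 0 in GTML3.

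Between the lines under DOX the regions were split. In limma over all regions, 607 (8.33%) were higher in preGTS1 DOX than in GTML3 DOX and 953 (13.1%) lower, while 15.3% of all regions were called higher and 6.21% lower, and 21.2% and 5.10% of the other distal regions. The median log2 difference was -0.02, against 0.45 in the other distal regions. The regions were chosen for a high signal in GTML3 DMSO, the same line as GTML3 DOX, so their shares beside those of other regions are a description. The CPM minimum used both groups too. Of the 607 higher regions 121, and of the 953 lower ones 92, did not reach 5 CPM over the 8 libraries outside this contrast. The region 69.2 kb from Otx2 was among those higher in preGTS1 (1.14 on the log2 scale), and the region near Pde8b among those lower (-5.25). The split turned with the scaling: centred on promoters it was 973 higher and 737 lower, and edgeR on the recovered reads gave 1366 higher and 990 lower. Without preGTS1 DOX replicate 1 or 2 the total of 1560 became 550 or 563.

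The regions lay nearest to 4155 genes, of which 2609 had 1 region, 1350 had 2 to 4 and 196 had 5 or more. Celf4, an RNA-binding protein of neurons, had the most, 18 of 27 distal regions, and their summed signal was 213 and 197 CPM in GTML3 DMSO, 418 and 404 in preGTS1 DMSO, 39.3 and 45.1 in GTS1 and 7.59 and 21.1 in GTS2. Mir218-2, whose mature sequences are printed above, had 17 of 20, summing to 411 and 415 in GTML3 DMSO, 314 and 320.3 in GTML3 DOX, 524 and 547 in preGTS1 DMSO, 408 and 396 in preGTS1 DOX, 35.03 and 24.5 in GTS1 and 15.2 and 11.5 in GTS2. The 17 lay 2.25 to 164 kb from its start and none exceeded 4.40 CPM in a GTS source. The highest in GTML3 DMSO, chr11:35418797-35419437, 11.2 kb away, read 76.8 and 80.7 CPM in preGTS1 DMSO and 30.2 and 30.95 in DOX (log2 difference -1.33, SE 0.44, limma adjusted p = 0.0933). The region 4.52 kb away fell from 10.4 and 8.62 to 1.22 and 2.22 (log2 difference -1.97, SE 0.47, limma adjusted p = 0.0308). RNA of Mir218-2 was not analysed here.

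Lef1, the WNT pathway's nuclear partner of beta-catenin, had 13 of 15 distal regions, summing to 312 and 332 CPM in GTML3 DMSO, 379 and 385 in preGTS1 DMSO, 273 and 288 in preGTS1 DOX, 51.8 and 53.7 in GTS1 and 17.7 and 18.1 in GTS2. The region 75.5 kb from its start fell with DOX in preGTS1 from 18.6 and 19.04 to 4.103 and 1.03 CPM (log2 difference -2.62, SE 0.56, limma adjusted p = 0.0172), and that 47.6 kb away from 34.8 and 31.8 to 11.9 and 12.5 (log2 difference -1.38, SE 0.36, limma adjusted p = 0.0447). The other 2 distal regions of Lef1 were each high in only 1 GTS source: that 55.7 kb away read 42.1 CPM in GTS1 and 1.21 in GTS2, and that 29.2 kb away 2.34 and 30.0. Its RNA in preGTS1 fell with DOX from 2.55, 2.16 and 1.87 log2 CPM to 0.92, 0.17 and 0.61, by 1.63 (SE 0.21, limma adjusted p = 3.95e-06).

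Efna5 had 11 of 20, and its 2 regions at 124 and 127 kb fell with DOX in preGTS1, from 117 and 119 to 44.98 and 54.7 CPM and from 59.5 and 51.2 to 16.3 and 17.96. Dclk1, a microtubule-binding kinase of migrating neurons, had 13 of 18 (summed 344 and 356 CPM in GTML3 DMSO, 48.3 and 52.8 in GTS1, 31.2 and 30.2 in GTS2), and 2810032G03Rik had 13 of 20. Sash1, a scaffold protein, and Tns3, a focal adhesion protein, had 12 each, with 1 and 3 regions that fell with DOX. Chd6, a chromatin remodeller, and 5430427M07Rik had 11 each, and 5 and 6 of these fell. The 11 regions of 5430427M07Rik summed to 674 and 655 CPM in preGTS1 DMSO and 211 and 227 in DOX, and to 509.7 and 494 and 218 and 216 in GTML3. No other gene named here had as many regions that fell.

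Photoreceptor and Group 3 genes, the list with the largest share among those with at least 20 distal regions, had 30 of 47 distal regions in the set (63.8%, against 29.9% over all genes), around 13 genes. With DOX in preGTS1, 2 of the 30 rose (6.67%) and 1 fell (3.33%), against 1.55% and 6.37% of all the lower distal regions, with a median log2 difference of -0.23. Otx2, the homeobox factor that drives this program, had 7 of 9. Their summed signal was 321 and 333 CPM in GTML3 DMSO, 284 and 243 in GTML3 DOX, 522 and 549 in preGTS1 DMSO and 505 and 528 in preGTS1 DOX, and 21.8 and 19.7 in GTS1 and 5.06 and 10.3 in GTS2. The highest, chr14:49212619-49213822, 69.2 kb from the start, read 114 and 121 in GTML3 DMSO, 215 and 228 in preGTS1 DMSO, 187 and 194 in preGTS1 DOX, 2.502 and 3.36 in GTS1 and 1.69 and 2.41 in GTS2. At this region every GTML3 and preGTS1 library was above every GTS library. The region 53.8 kb away, chr14:49228029-49229093, read 86.4 and 84.99, 159 and 167 and 124 and 129.8 in the same 3 conditions and at most 8.09 in a GTS source. The region 45.8 kb away, chr14:49236057-49237194, rose with DOX in preGTS1 from 25.7 and 24.1 to 71.9 and 76.96 CPM (log2 difference 1.54, SE 0.27, limma adjusted p = 0.00544). The region 60.7 kb away read 7.69 and 6.17 under DMSO and 25.5 and 23.9 under DOX, which did not pass (log2 difference 1.70, SE 0.69, limma adjusted p = 0.175).

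**Figure D3:**
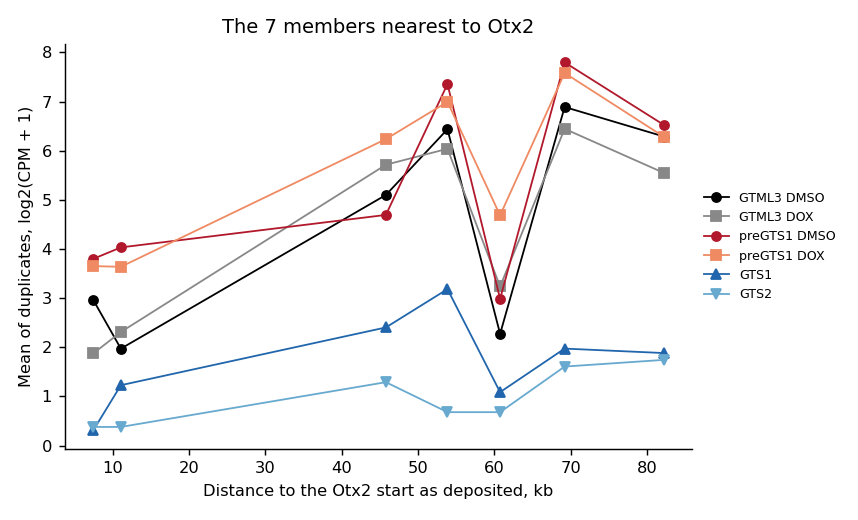
Mean of the duplicates as log2(CPM + 1) at the 7 lower distal regions nearest to Otx2, by their distance to its start in kb, 1 line per condition. GTS1 and GTS2 lie lowest at each of the 7 and preGTS1 DOX is highest at 45.8 and 60.7 kb.

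Otx2 RNA, measured apart from the rule, followed the lines differently from its regions. It was 9.34, 9.30 and 9.34 log2 CPM in GTML3 DMSO, 10.54, 10.59 and 10.61 in GTML3 DOX, 6.64, 6.66 and 6.73 in preGTS1 DMSO and 7.01, 7.15 and 6.99 in preGTS1 DOX. preGTS1 was thus lower than GTML3 in RNA by 2.65 (SE 0.07, limma adjusted p = 7.77e-14) while its summed regions read higher. In tumors the lowest, median and highest were 6.26, 8.21 and 8.76 in GTML and -0.41, 4.23 and 8.66 in GTS, a log2 difference of -3.48 (SE 1.19, limma adjusted p = 0.157) that did not pass. Impg2 had 4 of 5 distal regions, with sums of 164 and 133 CPM in GTML3 DMSO, 139 and 137 in preGTS1 DMSO, 10.3 and 8.63 in GTS1 and 0.844 and 6.64 in GTS2, and its RNA was 6.03, 6.20 and 6.33 in GTML3 DMSO and 3.27, 3.09 and 3.16 in preGTS1 DMSO. Neurod1 had 3 of 6 (sums 76.7 and 77.2 CPM in GTML3 DMSO, 20.3 and 23.5 in GTS1 and 4.22 and 5.43 in GTS2), and the region 2.30 kb away fell with DOX in preGTS1 from 41.1 and 44.8 to 19.6 and 17.8 CPM while its RNA rose by 1.31 (SE 0.08, limma adjusted p = 1.40e-09). Rorb, a nuclear receptor of photoreceptor and sensory neurons, had 4 of 5, with sums of 157 and 149.6 in GTML3 DMSO and 17.5 and 17.7 in GTS1.

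Neuronal differentiation genes had 58 of 141 distal regions in the set (41.1%), of which 4 fell (6.90%, near the 6.37% of all the lower distal regions) and 2 rose with DOX in preGTS1. Map2, a dendrite microtubule protein, had 8 of 13, and the strongest, 146 kb away, read 109.8 and 104 CPM in GTML3 DMSO, 59.6 and 60.6 in preGTS1 DMSO, 25.3 and 24.5 in GTS1 and 21.9 and 22.9 in GTS2. Dpysl3, an axon growth protein, had 6 of 8 regions, and its RNA rose with DOX in preGTS1 from 7.02, 7.16 and 7.23 to 10.45, 10.59 and 10.34 log2 CPM.

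Axon guidance genes had 63 of 175 (36.0%), of which 7 fell (11.1%, against 6.37%) and 1 rose with DOX in preGTS1. Robo2 and Dcc, receptors of Slit and netrin, had 5 of 5 each. The Dcc regions summed to 79.5 and 105 CPM in GTML3 DMSO, 153 and 152 in preGTS1 DMSO, 76.9 and 75.9 in preGTS1 DOX, 22.02 and 20.1 in GTS1 and 3.37 and 3.02 in GTS2. Epha3 had 7 of 7, and near Epha5 the strongest region, 437 kb away, read 178 and 163 in GTML3 DMSO, 54.1 and 63.2 in preGTS1 DMSO and at most 3.00 in any GTS library. Eph receptors and ephrins steer axons by contact.

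Cadherin and protocadherin genes had 53 of 140 (37.9%), of which 3 fell with DOX in preGTS1 (5.66%). Cdh11, a mesenchymal cadherin, had 8 of 14, summing to 152 and 149.6 CPM in GTML3 DMSO, 65.04 and 65.3 in GTML3 DOX, 162 and 153 in preGTS1 DMSO and 99.8 and 106 in preGTS1 DOX. Potassium channel genes had 32 of 77 (41.6%, against 29.9% of all distal regions), of which 2 fell (6.25%). The shares that fell, 5.66% and 6.25%, were near the 6.37% of all the lower distal regions. Kcnd3, an A-type channel, had 8 of 8, with sums of 189.9 and 173 in GTML3 DMSO, 357 and 356 in preGTS1 DMSO, 17.8 and 17.7 in GTS1 and 3.37 and 10.9 in GTS2. Kcnj6, a G-protein-gated channel, had 7 of 9, and its strongest region read 41.03 and 38.8 CPM in GTS1 against 0 and 1.21 in GTS2 and 81.2 and 96.4 in GTML3 DMSO. The GTS sources therefore differed at it although both met the rule.

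Regional homeobox genes had 30 of 65 (46.2%), of which 2 rose with DOX, 1 of them near En2, a factor of the midbrain-hindbrain border. Granule progenitor and SHH genes had 29 of 94 (30.9%), close to the 29.9% of all distal regions, and proneural and Notch genes 19 of 65 (29.2%). Reln, the secreted guidance protein of granule cells, had 6 of 7, and its strongest region read 47.5 and 47.3 CPM in GTML3 DMSO, 54.9 and 55.3 in preGTS1 DMSO, 52.7 and 48.7 in preGTS1 DOX, 7.76 and 10.1 in GTS1 and 1.69 and 3.02 in GTS2. SOX and nuclear factor I genes had 10 of 49 (20.4%), around 2 genes, with the lowest median DOX difference of these lists, -1.09. Within it Sox5 had 6 of 9, and the region 84.2 kb from Sox5 fell from 88.6 and 95.1 to 26.1 and 29.2 CPM (log2 difference -1.70, SE 0.28, limma adjusted p = 0.00399). TGF-beta and mesenchymal genes had 11 of 54 (20.4%), and there the region 173 kb from Bmpr1b, a BMP receptor, fell from 178 and 199 to 77.96 and 84.1 (log2 difference -1.21, SE 0.20, limma adjusted p = 0.00496).

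Astroglial and radial glial genes had 13 of 47 (27.7%), oligodendrocyte genes 7 of 25 (28.0%), cell cycle genes 9 of 45 and MYC network genes 5 of 28 (17.9%). Ribosome biogenesis and MYC target genes had 3 of 10 and interferon response genes 8 of 15. Lists of host cells were thin: microglia and macrophage genes had 4 of 7, endothelial and mural genes 1 of 12 (near Rgs5), T and NK cell genes 1 of 2 (near Cd4), and the 2 distal regions beside erythroid and muscle genes were outside the set. In GTML3 and preGTS1 RNA the summed CPM of the 2 microglial genes listed in the table was 1.87 to 5.79 in every sample, that of 6 endothelial genes 8.63 to 31.8 in all groups but preGTS1 DOX, where it was 97.1 to 98.8, and that of 20 astroglial genes 487 to 505 in GTML3 DMSO, 1086 to 1107 in preGTS1 DMSO and 4457 to 4535 in preGTS1 DOX. ATAC signal was also summed over the promoter regions of such lists in GTML3 DMSO, GTS1 and GTS2. For 5 oligodendrocyte genes it was 15.4 to 20.9, 58.0 to 63.6 and 124 to 146 CPM, with 59.6 to 60.6 in preGTS1 DMSO. It was 22.9 to 23.9, 36.8 to 39.8 and 92.8 to 109.8 for 5 endothelial and mural genes. For 1 microglial gene it went the other way, at 21.2 to 25.7, 8.01 to 10.1 and 3.37 to 4.22. The part of such cells in the region values was not tested.

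The driver locus of the model stood out by level. The region 48.1 kb from Slc1a2, the glutamate transporter whose promoter drives the transgene, at chr2:102497442-102499481, read 2035 and 2005 CPM in GTML3 DMSO, 2370.5 and 2228 in GTML3 DOX, 2302 and 2312 in preGTS1 DMSO, 2634 and 2650.01 in preGTS1 DOX, 576 and 594 in GTS1 and 672 and 632 in GTS2. It was the highest of the 7284 in GTML3 DMSO and stayed clearly accessible in every GTS library. Its rise with DOX in preGTS1 was small (log2 difference 0.20, SE 0.04, limma adjusted p = 0.0067) and did not pass in edgeR or with any 1 of the 4 libraries left out. Whether its reads come from the gene's own locus or from a construct was not tested. Slc1a2 RNA rose with DOX by 2.38 in GTML3 and 2.26 in preGTS1. Mycn itself had 3 regions, and the one 99.1 kb away rose with DOX in preGTS1 from 2.51 and 2.44 to 15.2 and 14.02 CPM (log2 difference 2.16, SE 0.53, limma adjusted p = 0.0334). Mycn RNA fell from 8716, 5663 and 6898 reads to 352, 436 and 521 in GTML3 and from 32677, 30170 and 39616 to 844, 1131 and 828 in preGTS1, by 3.59 and 4.86 on the log2 CPM scale, and reads of the gene and of the transgene cannot be told apart in these counts. Sox9 was the nearest gene of no region in the set, and its RNA rose by 2.24 and 2.13.

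The other 5 of the 6 regions with the most signal in GTML3 DMSO were over 2000 bases wide, and 4 of them fell with DOX in preGTS1. The region 1.38 kb from Alyref2, an mRNA export factor, read 990.2 and 945 CPM in GTML3 DMSO, 331 and 360.2 in GTML3 DOX, 714 and 665 in preGTS1 DMSO, 146 and 154 in preGTS1 DOX, 243 and 248 in GTS1 and 291 and 300.5 in GTS2 (log2 difference -2.19, SE 0.06, limma adjusted p = 1.50e-12 for preGTS1). Under DOX preGTS1 thus read below both GTS sources. The region 12.2 kb from D230017M19Rik fell by 2.21 on the log2 scale, from 478 and 498 to 97.9 and 112, again to below the GTS sources (146 and 155 and 158 and 135). The region 1.11 kb from Crlf2, a cytokine receptor, differed: 665 and 652 in GTML3 DMSO but 51.9 and 49.5 in preGTS1 DMSO, with a rise under DOX to 72.6 and 85.3 (log2 difference 0.62, SE 0.09, limma adjusted p = 0.00101) and 276 and 312 in GTS1. All 21 lower distal regions over 2000 bases wide together had medians of 262 CPM in GTML3 DMSO, 93.6 in GTML3 DOX, 152.5 in preGTS1 DMSO, 79.0 in preGTS1 DOX, 25.8 in GTS1 and 94.8 in GTS2. In preGTS1, 12 of the 21 fell with DOX and 2 rose, with a median log2 difference of -1.25. This group was formed after its values were seen.

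Few of the lower distal regions were listed in the table of the GFP and NoneGFP libraries, which are labelled as GTML tumor without a line name. With an overlap of at least 50% of the shorter region, 1402 of the 7284 (19.2%) had a counterpart, against 60.2% of the other distal regions, 76.5% of the 2618 distal regions at least 2 times higher in both GTS sources and 89.3% of promoter regions. The gap held at each level of signal: it was 18.4% against 65.4% up to 10 CPM in preGTS1 DMSO, 15.8% against 48.6% from 10 to 20, 19.8% against 57.3% from 20 to 50 and 34.3% against 77.3% over 50. Of the regions that fell with DOX in preGTS1, 31.7% had a counterpart, of those that rose 7.96%, and of the 21 wide ones 71.4%. The 7 regions near Otx2 and the 4 near Impg2 had none. The 1397 counterparts had medians of 5.28 CPM in GFP and 4.92 in NoneGFP. In limma over all 88258 regions of that table, 30 were higher in GFP (2.15%, against 2.32% of all and 3.88% of counterparts of other distal regions) and 13 lower (0.931%, against 1.13% and 1.68%). The count of 43 became 16 without GFP replicate 1, 10 without NoneGFP replicate 1, 16 without NoneGFP replicate 2 and 2 in DESeq2.

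**Figure D4:**
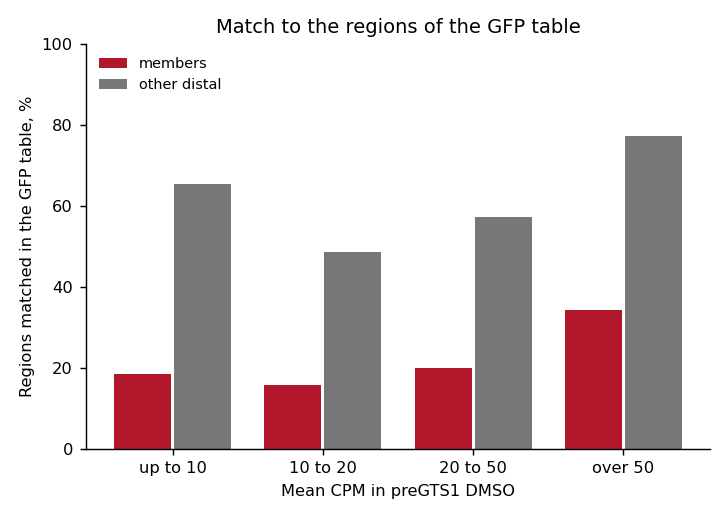
Share of regions (%, bars) that had a counterpart in the GFP table, by mean CPM in preGTS1 DMSO, for the lower distal regions (members, red) and the other distal regions (grey). The red bars run from 15.8% to 34.3% and the grey bars from 48.6% to 77.3%.

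RNA of the 4155 nearest genes had no part in the rule. In the 8 GTML and 6 GTS tumors, limma with the batch as a term called 3 of 2959 tested nearest genes, all 3 higher in GTS, while 0.0509% of all genes were called higher and 0.00637% lower. Col19a1, a collagen, had a lowest, median and highest of -0.16, 0.48 and 2.15 log2 CPM in GTML and 3.70, 5.10 and 5.80 in GTS, and these ranges did not overlap. The log2 difference for Col19a1 was 4.35 (SE 0.53, limma adjusted p = 0.00935). Crb1, a photoreceptor polarity protein, differed by 3.47 (SE 0.47, limma adjusted p = 0.0174) and Padi2, a protein-arginine deiminase, by 2.39 (SE 0.36, limma adjusted p = 0.023). The median log2 difference was -0.08 over the nearest genes, -0.07 over all genes and -0.23 over 157 genes with at least 5 regions. Without the batch term 119 were higher and 74 lower (3.92% and 1.96% of all genes). The 3 calls rested on single tumors: without GTS tumor replicate 1 limma called 0 genes (414 at an unadjusted p under 0.05, against 618 with all tumors), without GTS replicate 5, GTML replicate 7 or GTML replicate 8 it called 1 each, and without GTS replicate 2 or 3 it called 125 or 69.

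In the lines, genes with more lower distal regions were more often lower in RNA in preGTS1 than in GTML3 and more often higher under DOX, as counts with no test between the classes. In preGTS1 against GTML3 under DMSO, limma called 850 of 2556 nearest genes higher and 1084 lower, while 38.5% of all genes were called higher and 27.9% lower. Genes with distal regions but none in the set were lower in 26.0%, genes with 1 region in 36.6%, with 2 to 4 in 48.8% and with 5 or more in 66.4% of 146. With DOX in GTML3, 1130 were higher and 696 lower (34.5% and 31.4% of all genes), and genes with 5 or more regions were higher in 53.4% and lower in 19.9%. With DOX in preGTS1, 1262 were higher and 694 lower (34.5% and 33.7% of all genes), and the shares of genes that were higher were 38.1%, 44.6%, 55.1% and 66.4% with no region, 1, 2 to 4, and 5 or more. The median level of these 4 classes was 4.67, 4.83, 4.76 and 4.96 log2 CPM. The total number of distal regions of a gene was not held fixed between the classes. The regions were also chosen for a high signal in GTML3 DMSO, a condition of the first 2 contrasts. The part of either in these shares was not tested. The contrasts of preGTS1 with GTML3 and of DOX with DMSO share their DMSO samples, so a gene low in preGTS1 under DMSO can appear in both, and how far they depend on each other was not tested.

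**Figure D5:**
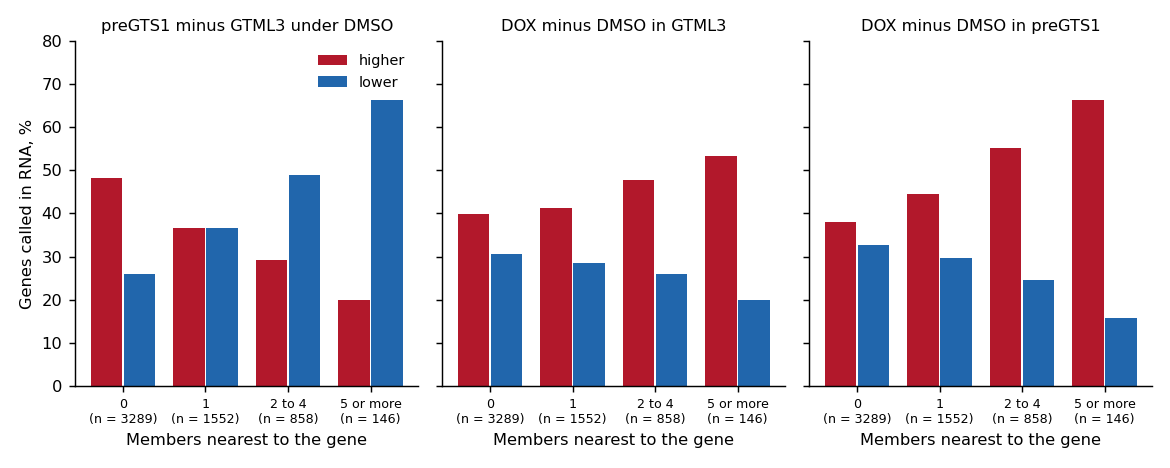
Share of genes (%) called higher (red) or lower (blue) in RNA by limma at an adjusted p under 0.05, by the number of lower distal regions nearest to the gene, in preGTS1 against GTML3 under DMSO and with DOX in each line. In genes with 5 or more regions 66.4% were lower in preGTS1 and 66.4% were higher with DOX in preGTS1.

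Single genes show this range. Among the nearest genes that were lowest in preGTS1, Nell1, a secreted signalling protein with 5 regions, had 1979, 1460 and 1933 reads in GTML3 DMSO and 2, 2 and 4 in preGTS1 DMSO, and Spock1, a matrix proteoglycan with 5 regions, had 1324, 965 and 1208 and 2, 4 and 6. Both rose with DOX in preGTS1, to 28, 26 and 28 and 63, 62 and 65 reads. The 5 regions of Nell1 had a median of 16.9 CPM in GTML3 DMSO and 22.9 in preGTS1 DMSO, and those of Spock1 15.5 and 6.58, so the median of the regions was lower in preGTS1 at Spock1 and not at Nell1. Genes that were higher in preGTS1 included Cnr1, the cannabinoid receptor, with 1, 0 and 0 reads in GTML3 DMSO and 1956, 1823 and 1708 in preGTS1 DMSO, and Hes5, a Notch target, with no read in GTML3 DMSO and 564, 627 and 680 in preGTS1 DMSO. The fitted folds of such genes depend on the floor of the log2 values and are not given.

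With DOX, most of the neuronal differentiation genes among the nearest genes rose in both lines. Mapt, the tau protein, went from 0.74, 1.34 and 1.24 to 6.33, 6.38 and 6.08 log2 CPM in GTML3 and from 2.53, 2.72 and 2.45 to 6.50, 6.59 and 6.55 in preGTS1, and Snap25, a synaptic vesicle fusion protein, from 3.03, 3.59 and 2.71 to 6.99, 6.87 and 6.86 in preGTS1. Ache, acetylcholinesterase, rose by 5.77 in GTML3 and 3.57 in preGTS1. Of the 20 neuronal differentiation genes with regions in the set, 14 rose and 3 fell in GTML3 and 18 rose and 1 fell in preGTS1, where 34.5% of all genes rose in each line. Over the whole list, with or without such regions, 21 of 30 rose in GTML3 and 26 of 30 in preGTS1, so the rise is not shown to be particular to genes with these regions. Of 12 photoreceptor genes tested, 10 rose and 1 fell in GTML3 and 10 rose and 2 fell in preGTS1 (13 of 16 rose over the whole list in each line). Under DMSO, 10 of the 12 were lower and 2 higher in preGTS1 than in GTML3. Over the whole list 13 of 16 were lower and 3 higher, and of all genes 27.9% were lower and 38.5% higher. Phgdh, an enzyme of serine synthesis, fell by 4.02 in GTML3 and 1.79 in preGTS1, and Mcm10, a replication factor, by 3.73 and 3.87.

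RNA calls in preGTS1 under DOX were counted by what a gene's regions did, and a gene with regions of more than 1 kind is counted under each. Of the 251 tested genes nearest to regions that fell, 126 (50.2%) rose in RNA and 68 (27.1%) fell. Of the 82 nearest to regions that rose, 41 rose and 23 fell, and of the 2452 nearest to regions not called 49.8% rose and 27.0% fell. The differences between these shares were not tested. Promoters of the nearest genes were read in the same GTS and GTML3 DMSO libraries that the rule used. Their values are therefore a description, and the part of shared library or chromosome levels in them was not tested. The median promoter log2 ratio to GTML3 DMSO was -0.36 in GTS1 and -0.21 in GTS2 for the nearest genes, -0.88 and -0.76 for genes with at least 5 regions, and -0.02 and 0.07 over all promoter regions. Both GTS sources were at 0.5 times or less at 14.2%, 28.0% and 7.48% of these promoters.

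The regions lay farther from starts than the other distal regions and in groups. Their median distance was 39.1 kb against 30.2 kb, and their share of distal regions was 23.0% from 1 to 5 kb and 36.4% from 100 to 500 kb, while the median width was 726 bases in both sets. Another of them lay within 25 kb of 2932 (40.3%), and within that window 47.3% of their distal neighbours were in the set, against 22.9% of the neighbours of other distal regions. By chromosome the share ran from 17.97% on chromosome 8 to 41.5% on chromosome 16 and 46.3% on X. On chromosome 8 the median promoter log2 ratio was 0.80 in GTS1 and 0.39 in GTS2, on X it was -0.84 and -0.49, and on chromosome 16 it was -0.62 and -0.04. On chromosome 14, with a share of 34.0%, it was -0.26 and 0.57. The part of whole-chromosome levels in the choice of regions was not tested.

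Depth in the listed regions ran from 827366 reads in a GTML3 DOX library to 7773324 in a preGTS1 DMSO library, and from 8964353 to 14953541 in the GFP and NoneGFP libraries. In GTML3 DOX 1 read is over 1 CPM, so ratios of weak regions are coarse there. The depth of the tumor RNA libraries is unknown. The labels do not state whether ATAC duplicates or line RNA replicates were separate cultures. The p-values for them thus measure library spread, which may be technical.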

How the data were processed

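ATAC-seq regions and bulk RNA were analysed from the deposited tables. The ATAC tables hold CPM per region, deposited by the authors, and every CPM value was a whole number of reads within a tolerance of 0.1, so reads could be recovered for count tests. The RNA tables hold log2 CPM deposited by the authors. For tumors, the number 120 or 263 in the deposited names was read as batch. Its largest coefficient was 1.8e-14 on the log2 scale. Per the submitters' processing notes, the tools were MACS2, edgeR, limma, Bowtie2 2.2, STAR 2.4.0, Subread 1.5.2, Seurat 3.0 and Cell Ranger 3.3.0, with mm10 and mm9 as builds and no role given for any. The build of the ATAC tables is not given in the sources used here: 6.28% of 13400 promoter regions lay close to their gene's boundary in GRCm38, and the coordinates fit mm9. Sequences printed are RefSeq's, on GRCm38.p6. Where sample titles and descriptions differ, titles were followed. The single-cell files were not used, and 1 line in each ATAC table that named no region was left out.

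Regions were tested with limma 3.58.1 (R 4.3.3) on log2(CPM + 1), all 12 libraries sharing 1 estimate of the spread, and RNA with limma on the log2 CPM values after a filter on low values, with the batch as a term for tumors. P-values were adjusted by Benjamini-Hochberg over all features and called under 0.05. DESeq2 1.42.0 and edgeR 4.0.16 were run on recovered reads as alternatives, with other pseudocounts, filters, scalings, fits of 2 groups alone and libraries left out. Regions of the 2 ATAC tables were matched with bedtools 2.31.1 at an overlap of 50% of the shorter region. The scripts were tested on simulated data. The regions, gene lists and tests were chosen with earlier results of these data known. Named regions were the 6 highest in GTML3 DMSO, the 6 largest called rises and falls with DOX, the 5 highest and 5 lowest ratios of preGTS1 to GTML3, the strongest region of each list and those at the edge of the rule. Named genes were the 8 with the most regions, up to 6 in each direction of each RNA contrast and listed genes with at least 3 regions. Other genes and regions described, the wide regions included, were chosen after their values were seen. Some named genes and regions are not reported here. Replicate numbers did not pair samples: deviations of same-numbered samples correlated at -0.01 to 0.01 in ATAC and -0.22 to 0.12 in line RNA. ATAC depth was 827366 to 7773324 reads in listed regions.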

Additional observations from a re-analysis of the deposited data

Results flagged for a closer look

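Among 192 sets of tumor values of named genes, 8 held a tumor far from the other GTML tumors of the 8 (chance gives about 1 in 20). The highest GTML tumor stood apart for Cabp5 (8.19 log2 CPM, median 4.45), Slc17a6 (9.11, median 6.83), Rorb (9.69, median 7.28) and Mbp (8.24, median 5.28). The lowest stood apart for Exo1 (6.78, median 7.45), Efnb2 (3.96, median 5.51), Sox11 (3.99, median 6.83) and Cmpk2 (-3.94, median 3.53).

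The DOX effect on RNA differed between the lines, by an interaction term in limma, for 64 of 91 named genes. The named genes were chosen in part for large RNA differences in the same samples, so nothing is read from that count. Of all nearest genes tested 54.9% were called, against 42.2% of all genes. For 15 of the 91 the calls went in opposite directions, which was not counted over all genes. The effect in preGTS1 minus that in GTML3, on the log2 scale, was higher for Nav3 (6.61), Fjx1 (5.72), Unc5c (4.91), Slc1a3 (3.69), Cdh11 (3.28), Robo1 (2.204), En2 (2.04), Neurod1 (1.67), Uncx (1.55) and Pcdh18 (1.32). It was lower for Lpl (-7.76), Guca1a (-6.03), Barhl2 (-3.11), Lef1 (-2.16) and Mbp (-1.39). The sizes for Nav3, Fjx1, Lpl and Guca1a depend on the floor of the log2 values, since these genes had samples with no read. The DOX calls of Lef1, Mbp and Unc5c in GTML3 were lost with some single libraries left out.

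At 2 regions both duplicates moved one way in GTML3 and the other way in preGTS1 under DOX, and the difference was not tested. The region near Crlf2 differed by -0.061 in GTML3 and 0.62 in preGTS1 on the log2(CPM + 1) scale, and the region near Gm28590 by 1.44 and -1.19. Near Crlf2 the GTML3 duplicates read 665 and 652 CPM under DMSO and 626 and 637 under DOX. The move in GTML3 was thus very small there, and an opposite direction is not established.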

How the results depend on the processing

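Among named genes in the RNA contrasts and named regions in both preGTS1 DOX contrasts, no called value changed sign under the alternatives run, while the split of higher and lower regions between the lines under DOX, 607 and 953, became 973 and 737 with promoter centring and 1366 and 990 in edgeR. With DOX in preGTS1, 577 regions were called, against 2713 in DESeq2, 3659 in edgeR, 4512 with only the 2 groups in the fit, 212 with a pseudocount of 0.5 and 1176 with 2, and 34 to 50 with 1 library left out. Between the lines under DOX, 1560 were called, against 2356 in edgeR, 484 with 2 groups, 911 at a mean CPM of at least 10 and 550 to 1604 with 1 library left out. In GFP against NoneGFP, 43 became 2 in DESeq2 and 10 to 37 with 1 library left out. In tumors, 3 became 5 after median centring, 193 without the batch term and 0 to 125 with 1 tumor left out. The cause was not tested. Counting both named genes of each region, more genes were tested, and 2949 were called between the lines under DMSO, 2777 with DOX in GTML3 and 2956 with DOX in preGTS1. The share of regions at 0.5 times GTML3 DMSO or less was 14.8% in preGTS1 DMSO at a mean CPM of at least 10, 18.6% under a stricter GTS rule and 12.9% after promoter centring. In preGTS1 DOX it was 35.6% under the stricter rule and 26.7% after centring, and in GTML3 DOX 14.7% at the higher CPM and 21.4% and 22.0% in single duplicates. These alternatives for shares were chosen after seeing the data.

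Replicate numbers are only names here. With the replicate block the counts were 539 with DOX in preGTS1, 1549 between the lines under DOX, 46 in GFP against NoneGFP, and 1900, 1799 and 1940 in the RNA of the lines. Over the named regions called with DOX in preGTS1 and their alternatives, 182 values stayed past the threshold and 58 did not, mostly with 1 library left out, and between the lines under DOX 275 stayed and 37 did not. Interactions and values in the GFP table were not recomputed gene by gene. In RNA, Lef1, Efna5, Unc5c, Cdh2, Cdh4, Cmpk2 and Mbp (DOX in GTML3), Dclk1 and Efna5 (DOX in preGTS1), Rorb, Fat3 and Plxna2 (between lines) and Col19a1, Crb1 and Padi2 (tumors) lost their call in at least 1 alternative. The shallow GTML3 DOX libraries limit ratios of weak regions.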
